A study of Mus musculus with 2 samples.

Results

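The genes of the IL-10 and TGF-beta pathways described here are the cytokine genes Il10, Ebi3 and Tgfb1, the receptor genes Il10ra, Il10rb, Tgfbr1 and Tgfbr2, and the intracellular genes Smad3 and Smad7. These 9 genes, of the 26981 genes listed in either file, were chosen by name, and all had UMIs in both libraries. CD45+ cells were enriched with magnetic beads from visceral adipose tissue (VAT) of wild-type C57BL/6 mice, 15 weeks old, that drank normal water (NW) or received antibiotics (ABX). The methods list ampicillin, streptomycin, colistin and vancomycin in drinking water, singly or mixed, and the sources used here do not say which of these the sequenced mice received or how many mice stand behind each library. With 1 library per condition no test between conditions could be made. Every interval below is a 95% interval that covers counting error only, and it is too narrow where the UMIs of a gene sit in few cells, since UMIs of 1 cell are not independent.

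IL-10 is an anti-inflammatory cytokine that signals through a receptor made of IL-10RA, which binds the cytokine, and IL-10RB, which is shared with other cytokines of the family. Ebi3 encodes a subunit that pairs with the product of Il27 to form IL-27, or with that of Il12a to form IL-35. TGF-beta1, the product of Tgfb1, is secreted in a latent form, binds TGFBR2, which then recruits TGFBR1, and signals through SMAD3, while SMAD7 is an induced inhibitor of that signal. Regulatory T (Treg) cells of VAT, many of which carry the IL-33 receptor ST2 (gene Il1rl1), are known as a source of IL-10.

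The filters left 12474 cells of the NW library, whose median was 5092 unique molecular identifiers (UMIs, distinct mRNA molecules counted). The ABX library kept 12724, at a median of 3845.5. The clusters were built without the 9 genes and the pathway genes among the variable genes. They gave 1 Treg-like cluster of 392 NW and 155 ABX cells, 3135 and 4861 other lymphocyte-like cells, and 8256 and 6858 myeloid-like cells. Foxp3, the lineage factor of Treg cells and 1 of the markers that named the cluster, had a UMI in 87.5% of the NW and 72.3% of the ABX Treg-like cells. These shares were not taken at equal depth. A cluster of 54 NW and 32 ABX cells that was led by both Foxp3 and cDC1 genes was kept out of every class. Despite the enrichment for CD45+ cells, 357 NW and 530 ABX cells were endothelial-like. Among the kept cells, 196 cell indices occurred in both libraries. Levels are given as UMIs per 1000000 UMIs summed over a class (CPM), and they also depend on the total UMIs of the class. Plasma cell-like cells had a median of 13684 UMIs in NW and 11513.5 in ABX, against 3277.5 and 2505 in Treg-like cells. A low CPM in plasma cell-like cells thus need not mean few UMIs per cell. Since the assay counts molecules near their 3' ends, 1 gene is compared across classes, and no gene is compared with another. Positions of genes are those of GENCODE M21 on GRCm38. A gene is called, or past the fold, where its CPM differed by at least 1.5-fold, its interval left out a ratio of 1, and it had at least 50 UMIs over both libraries in the class.

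A pair of promoters is shown because the levels of Tgfbr2 and Ebi3 ran in different orders across macrophage-like and dendritic cells. The RefSeq table of 300-base windows for GRCm38.p6, from 250 bases before to 50 bases after a gene's start, held 5 of the 9 genes (Ebi3, Tgfb1, Tgfbr1, Tgfbr2 and Smad3). Capitals mark CAGAC and GAGGAA, on either strand. The Tgfbr2 window is chr9:116175314-116175613 on the minus strand and the Ebi3 window is chr17:55952373-55952672 on the plus strand.
Tgfbr2: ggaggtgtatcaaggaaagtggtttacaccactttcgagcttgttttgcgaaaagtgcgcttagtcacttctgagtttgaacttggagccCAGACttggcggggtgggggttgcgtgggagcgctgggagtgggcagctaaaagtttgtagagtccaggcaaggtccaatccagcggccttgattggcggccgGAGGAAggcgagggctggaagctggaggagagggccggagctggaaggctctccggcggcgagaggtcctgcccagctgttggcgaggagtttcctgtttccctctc
Ebi3: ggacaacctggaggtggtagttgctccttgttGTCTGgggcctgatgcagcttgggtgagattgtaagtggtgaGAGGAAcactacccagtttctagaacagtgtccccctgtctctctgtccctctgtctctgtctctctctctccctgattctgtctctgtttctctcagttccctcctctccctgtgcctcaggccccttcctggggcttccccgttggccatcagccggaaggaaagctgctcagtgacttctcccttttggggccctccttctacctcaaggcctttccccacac
Each window held 1 match to CAGAC, the core of the Smad box, which 49.6% of the 32851 promoters in the table held on either strand. Each also held 1 match to GAGGAA, a core of PU.1 sites, which was present in 28.3% of them. Neither window held the GC box motif GGGCGG, found in 35.7% of the promoters. The TATA box motif TATAAA, found in 13.6%, was also not in either window. The motifs were chosen with the levels known, and a match is a run of letters and not a measured binding site.

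Il10 (chromosome 1, 131019845 to 131024974, plus strand) was highest in Treg-like cells, and there its level was lower in ABX than in NW. It stood at 103 CPM (87.8 to 120) in NW, from 162 UMIs, and at 35.3 CPM (20.2 to 57.3) in ABX, from 16 UMIs. The log2 ratio of ABX over NW was -1.55 (-2.39 to -0.80), a 2.92-fold lower level, and the intervals of both libraries did not overlap. A UMI of Il10 was found in 15.8% (12.3% to 19.8%) of NW and 7.74% (4.06% to 13.1%) of ABX Treg-like cells. At an equal depth of 1000 UMIs per cell the shares were 6.87% and 3.43%, with 5 NW and 3 ABX cells too shallow to be thinned. In gdT-like cells, used as the background for these shares, 0 of 241 NW and 0 of 294 ABX cells had a UMI, which allows shares of up to 1.24% and 1.02%, at median depths of 3568 and 2997 UMIs against 3277.5 and 2505 in Treg-like cells. They were among the classes with the fewest Il10 UMIs, and over all other lymphocyte-like cells 1.08% of NW and 1.01% of ABX cells had a UMI. A class with 0 UMIs does not measure stray Il10 RNA in Treg-like cells.

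The UMIs were unevenly spread over Treg-like cells. In NW, 21 cells held 3 or more Il10 UMIs and 1 cell held 12, whereas no ABX cell held more than 2. Leaving out the cell with the most UMIs in each library gave a log2 ratio of -1.62 (-2.53 to -0.83). Without thinning to equal depth, cells with a UMI of Il1rl1 made up 86.2% of NW and 60.0% of ABX Treg-like cells. Within these cells Il10 stood at 111 CPM in NW and 47.3 CPM in ABX, a log2 ratio of -1.23 (-2.17 to -0.42). In Treg-like cells without an Il1rl1 UMI the ratio was -1.24, but on 7 and 3 UMIs its interval of -3.83 to 0.89 spanned 0.

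**Figure D1:**
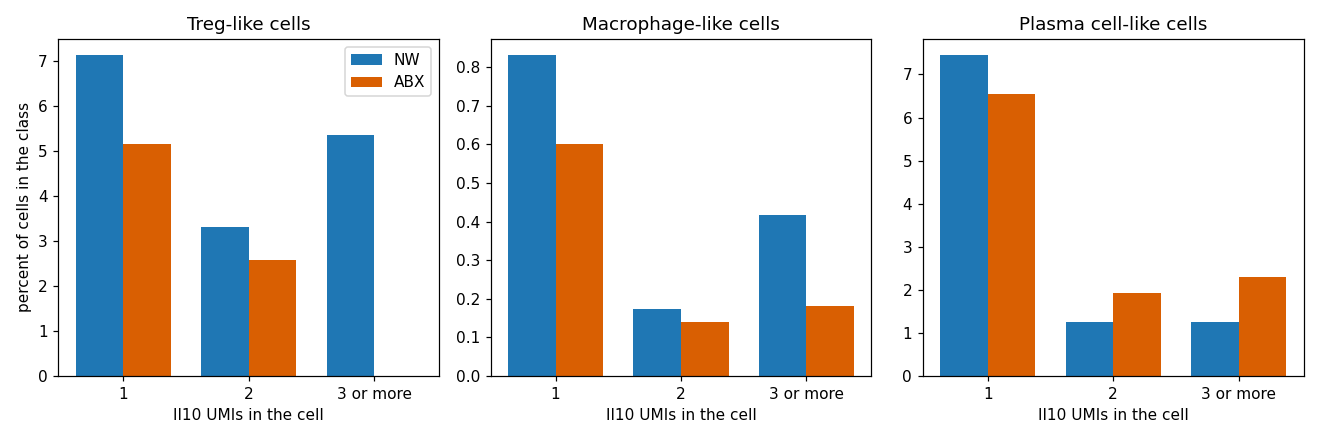
Percent of Treg-like, macrophage-like and plasma cell-like cells (vertical axis, starting at 0, with its own scale in each panel) that held 1, 2, or 3 or more Il10 UMIs, for NW (blue) and ABX (orange). Among Treg-like cells, the bar for 3 or more UMIs is present in NW, with 21 cells, and at 0 in ABX.

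Other RNA moved with this result. The 10 macrophage markers summed to 22.0 UMIs per 10000 in NW and 17.4 in ABX Treg-like cells, none of them was at 0, and 8 of 10 were higher in NW. The cDC1 markers summed to 2.44 in NW and 1.41 in ABX, the Treg markers to 52.5 and 46.4, and the ILC2 markers to 31.0 and 23.3. B cell markers, at 0.68 and 0.86, and NK markers, at 0.34 and 0.75, went the other way. In Treg-like cells without a UMI of Cd209f, Lyve1 or the C1q genes, Il10 stood at 68.7 CPM in NW and 20.6 CPM in ABX, from 12 and 3 UMIs (log2 ratio -1.74, interval -4.20 to 0.15). Immediate early and heat shock genes, which tissue digestion is known to induce, summed to 112 and 84.4 UMIs per 10000, with 9 of 10 higher in NW. Below the median share of these UMIs, in 169 NW and 105 ABX cells, the log2 ratio of Il10 was -1.47 (-2.76 to -0.38). Above it, in 223 and 50 cells, the ratio was -1.28 (-2.53 to -0.25). Within each set the share can still differ between the libraries. The part of these genes, of the macrophage RNA and of the other marker lists in the level of Il10 was not tested.

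Among myeloid cells, Il10 was found mainly in macrophage-like cells, at a lower level in ABX. In these cells it stood at 6.57 CPM (5.76 to 7.47) in NW and 4.08 CPM (3.29 to 5.01) in ABX, a log2 ratio of -0.69 (-1.05 to -0.33), in a class where 1.72% of all genes were called lower. Within them, the cluster led by Ccl12, Cx3cr1 and Il1b had the most, with 31.4 CPM in NW and 13.2 CPM in ABX (log2 ratio -1.25, interval -1.77 to -0.74). The 5 NW cells of that cluster with the most UMIs held 55.8% of its Il10 UMIs. In cells with at most 10% mitochondrial UMIs, macrophage-like cells stood at 5.10 and 3.81 CPM, and the log2 ratio of -0.42 no longer passed 1.5-fold. The same immediate early and heat shock genes summed to 157 UMIs per 10000 in NW and 153 in ABX macrophage-like cells, with 8 of 10 higher in NW. Their part in the level of Il10 in these cells was not tested. In cDC1-like cells, 6 of 1083 NW and 0 of 808 ABX cells had an Il10 UMI, and a difference was not detectable at this depth.

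Plasma cell-like cells differed in the other direction. Il10 stood at 10.7 CPM (6.78 to 16.1) in NW, from 23 UMIs, and at 27.2 CPM (21.6 to 33.7) in ABX, from 82 UMIs, a log2 ratio of 1.34 (0.66 to 2.08), where 5.11% of all genes were called higher. The shares of cells with a UMI were 9.94% (5.79% to 15.6%) and 10.8% (7.28% to 15.2%), so that their intervals overlapped. A single ABX cell held 22 of the 82 UMIs, and without the cell with the most UMIs in each library the ratio was 1.16 (0.40 to 1.99). In all, Treg-like cells held 31.9% of the Il10 UMIs of NW and 6.72% of those of ABX, and plasma cell-like cells held 4.53% and 34.5%. Both shares combine how many cells of a class there were with the level in each cell.

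Ebi3 (chromosome 17, 55952640 to 55957022, plus strand) stood at 73.8 CPM in NW and 70.6 CPM in ABX in Treg-like cells, and the interval of the log2 ratio of -0.06 (-0.68 to 0.51) spanned 0. Over both libraries its level was 94.9 CPM (60.2 to 142) in neutrophil-like cells, from 23 UMIs, 80.6 CPM in cDC2-like, 77.6 in cDC1-like and 73.1 in Treg-like cells, whose intervals overlapped, and 44.1 CPM in macrophage-like cells. It was lowest in unnamed cluster 17, gdT-, NK- and NKT-like cells, at 5.6 to 9.7 CPM. These levels rest on 6 to 29 UMIs, and they were 5.29 CPM in NKT-like and 3.16 CPM in NK-like cells as a mean over cells, and 2.80 CPM in gdT-like cells without doublets. Of the genes for its partners, Il12a had 0 UMIs in Treg-like cells of both libraries and was highest in B cell-like cells, at 27.3 CPM. No NW and 1 ABX Treg-like cell had an Il27 UMI. Among B cell-like cells of at least 1000 UMIs, 1.72% (0.64% to 3.71%) in NW and 1.71% (0.98% to 2.76%) in ABX held UMIs of both Ebi3 and Il12a. The products of the single shares, 1.74% and 1.12%, lay within these intervals.

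Tgfb1 (chromosome 7, 25687002 to 25705077, plus strand) was found in every class. Its level over both libraries was 62.8 CPM (57.3 to 68.6) in ILC2-like cells, which overlapped with unnamed cluster 4 at 58.3 CPM, and 39.5 CPM (31.3 to 49.2) in Treg-like cells. Only mature DC-like cells, at 15.0 CPM, and plasma cell-like cells, at 12.8 CPM, lay apart below the other classes. Treg-like cells had 40.1 CPM in NW and 37.5 CPM in ABX, other lymphocyte-like cells 41.7 and 40.0 CPM, and myeloid-like cells 46.0 and 49.2 CPM. The log2 ratio was -0.10 (-0.96 to 0.69) in Treg-like, -0.06 (-0.21 to 0.09) in other lymphocyte-like and 0.10 (0.01 to 0.19) in myeloid-like cells, none of them near 1.5-fold.

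**Figure D2:**
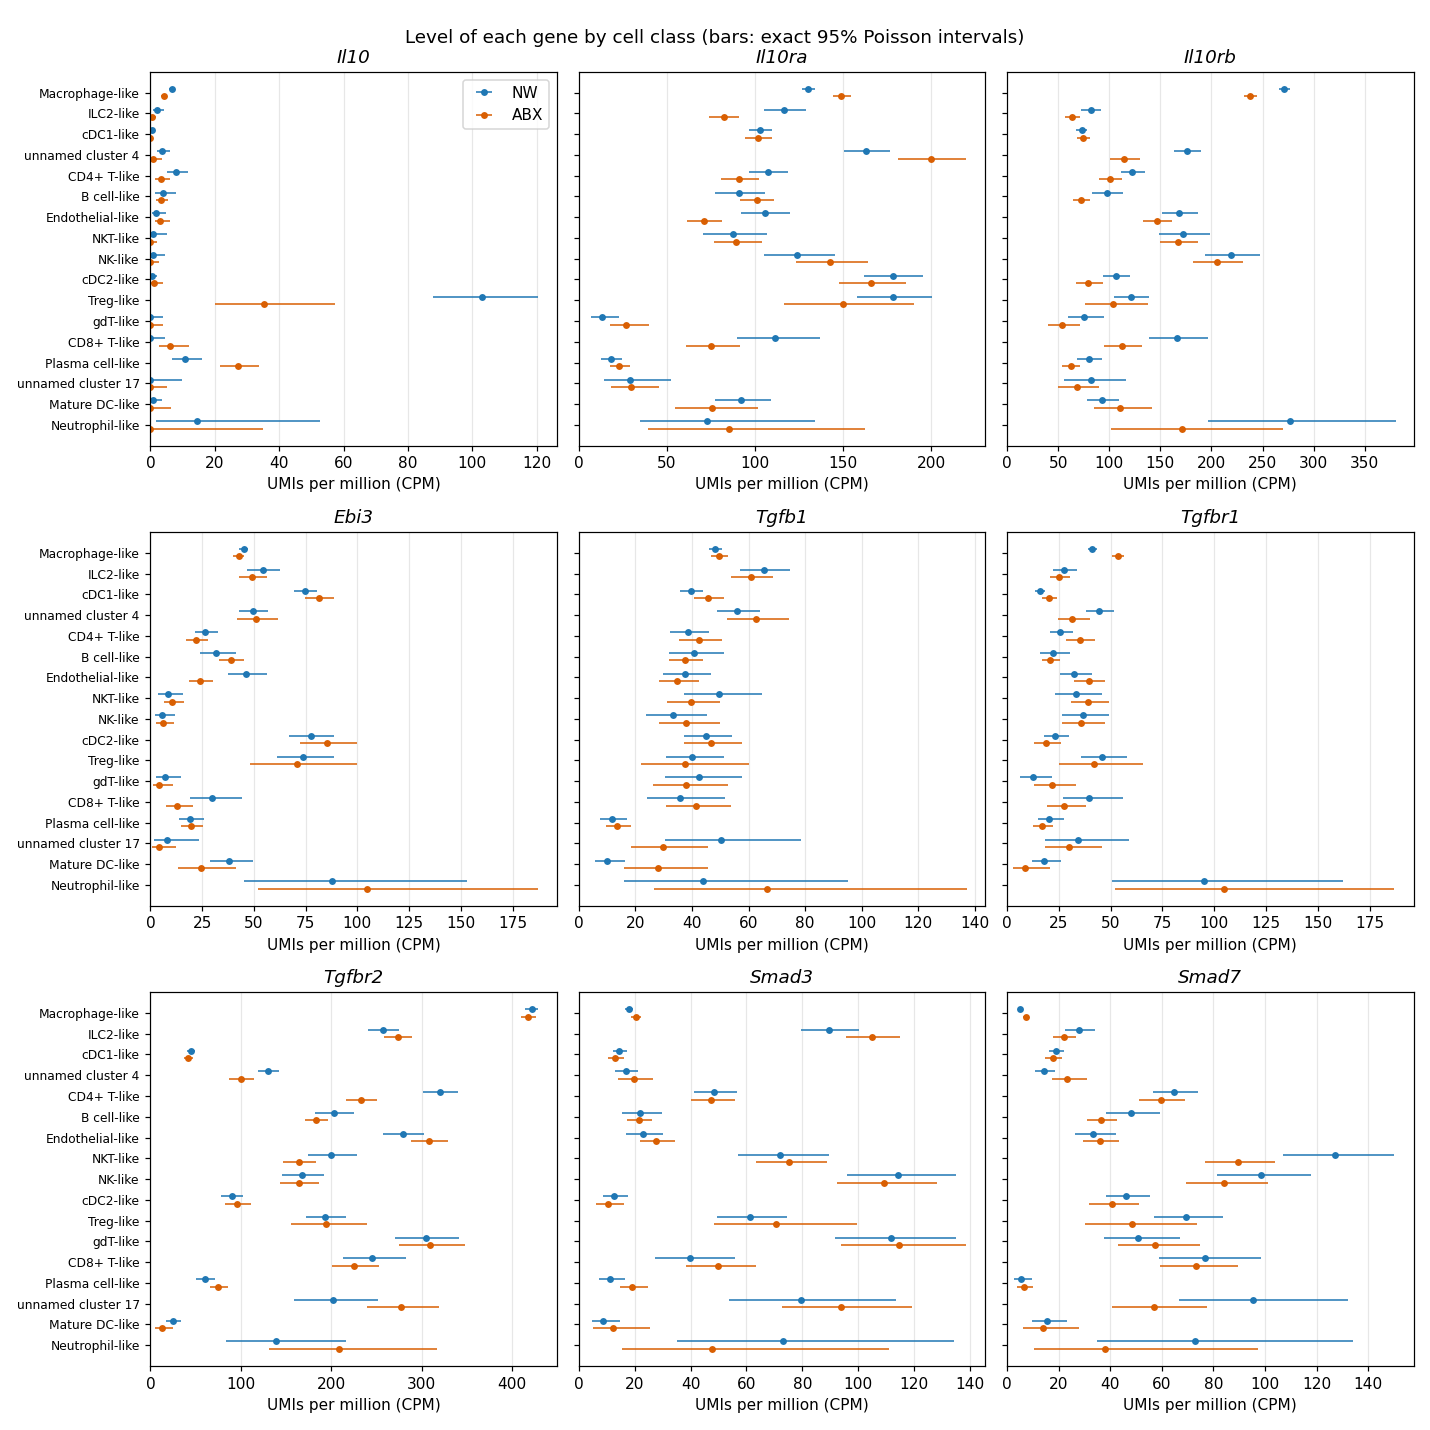
Level of each of the 9 genes in CPM (horizontal axes, each starting at 0) in 17 cell classes, for NW (blue) and ABX (orange). Points are the level in 1 library and bars its exact 95% Poisson interval, and Il10 stands out in Treg-like cells, at 103 CPM in NW and 35.3 CPM in ABX.

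Il10ra (chromosome 9, 45253837 to 45269149, minus strand), the binding chain, was highest in unnamed cluster 4, cDC2-like and Treg-like cells, at 176, 173 and 172 CPM over both libraries, values that did not differ beyond their intervals. As a mean over cells, in which each cell weighs the same, the levels were 317, 204 and 169 CPM, so that the likeness of these classes depended on the weighting. Cluster 4 counted as myeloid and was led by Lpl, Fgr, Dpep2 and Itgax. In gdT-like cells Il10ra stood at 20.1 CPM (14.2 to 27.6) and in plasma cell-like cells at 20.9 CPM. In Treg-like cells it was 178 CPM in NW and 150 CPM in ABX, a log2 ratio of -0.25 (-0.65 to 0.14). Other lymphocyte-like cells had 86.8 and 78.8 CPM, and myeloid-like cells, where ABX was the higher, 129 and 143 CPM. ILC2-like cells had 117 CPM in NW and 82.3 CPM in ABX, and that ratio of -0.50 (-0.71 to -0.29) did not reach 1.5-fold.

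Il10rb (chromosome 16, 91406164 to 91425834, plus strand), the shared chain, had another order. It was highest in macrophage-like cells, at 258 CPM (254 to 262) over both libraries, where neutrophil-like cells at 231 CPM overlapped with it, followed by NK-like cells at 212 CPM. Treg-like cells stood at 121 CPM in NW and 104 CPM in ABX (log2 ratio -0.22, interval -0.71 to 0.25). Other lymphocyte-like cells, at 114 and 92.0 CPM, and myeloid-like cells, at 216 and 188 CPM, were lower in ABX by less than 1.5-fold. In cluster 4 the level was 176 CPM (163 to 190) in NW and 115 CPM (101 to 130) in ABX, a log2 ratio of -0.62 (-0.84 to -0.40), past 1.5-fold, where 5.92% of all genes were called lower. The 10 macrophage markers summed there to 68.6 UMIs per 10000 in NW and 44.1 in ABX, and the immediate early and heat shock genes to 98.2 and 76.9, with 10 of 10 higher in NW in both lists and none at 0. Their part in the level of Il10rb was not tested. Of cells with at least 1000 UMIs, 16.3% (12.7% to 20.3%) of NW and 10.5% (6.14% to 16.5%) of ABX Treg-like cells held both chains, against 13.9% and 6.82% from the product of the single shares. These cells were not thinned to equal depth. After thinning to 1000 UMIs the expected single shares were 15.5% in NW and 12.7% in ABX for Il10ra, and 10.4% and 10.3% for Il10rb.

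Tgfbr2 (chromosome 9, 116084293 to 116175360, minus strand) separated macrophage-like from dendritic cells. It stood at 420 CPM (415 to 425) in macrophage-like, 92.2 CPM in cDC2-like, 43.4 CPM (40.2 to 46.7) in cDC1-like and 21.3 CPM (15.5 to 28.6) in mature DC-like cells over both libraries. Treg-like cells had 193 CPM in NW and 194 CPM in ABX, a log2 ratio of 0.00 (-0.35 to 0.35). CD4+ T-like cells had 320 CPM in NW and 233 CPM in ABX, and the ratio of -0.46 (-0.60 to -0.32) did not reach 1.5-fold. The macrophage markers summed in CD4+ T-like cells to 48.8 UMIs per 10000 in NW and 34.3 in ABX. The immediate early and heat shock genes summed to 99.0 and 75.4, with 10 of 10 higher in NW in both lists. Their part in the level of Tgfbr2 was not tested. Tgfbr1 (chromosome 4, 47353222 to 47414931, plus strand), the signalling chain, was highest in neutrophil-like cells, at 99.1 CPM from 62 NW and 56 ABX cells, and next in macrophage-like cells at 46.0 CPM. Treg-like cells had 45.8 CPM in NW and 41.9 CPM in ABX, a log2 ratio of -0.13 (-0.94 to 0.62). In macrophage-like cells Tgfbr1 was 41.3 CPM in NW and 53.6 CPM in ABX, a log2 ratio of 0.38 (0.27 to 0.49) that stayed under 1.5-fold.

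The highest levels of Smad3 and Smad7 were in NK-, NKT-, gdT- or ILC2-like cells, though not all lymphocyte-like classes were high. Smad3 (chromosome 9, 63646767 to 63757994, minus strand) was highest in gdT-, NK- and ILC2-like cells, at 113, 111 and 98.3 CPM with overlapping intervals, and stood at 61.9 CPM (34.7 to 102) in neutrophil-like, 18.8 CPM in macrophage-like and 15.9 CPM in plasma cell-like cells. Smad7 was highest in NKT- and NK-like cells, at 103 and 90.8 CPM. It was 44.0 CPM in cDC2-like and 24.4 CPM in ILC2-like cells, and lowest in plasma cell-like cells, at 6.2 CPM (4.2 to 8.7), and macrophage-like cells, at 5.9 CPM (5.3 to 6.6), whose intervals overlapped. In Treg-like cells Smad3 was 61.1 CPM in NW and 70.6 CPM in ABX (log2 ratio 0.21, interval -0.42 to 0.80). Smad7 was 69.4 CPM in NW and 48.5 CPM in ABX, and its ratio of -0.52 (-1.25 to 0.16) spanned 0. In plasma cell-like cells Smad3 was 11.2 CPM in NW and 19.2 CPM in ABX, a log2 ratio of 0.78 (0.07 to 1.53), past 1.5-fold, on 24 and 58 UMIs.

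In Treg-like cells 1 of the 9 genes, Il10, was past the fold, in the lower direction, in which 4.52% of 6129 genes were called (5.45% in the higher). In myeloid-like cells it was again Il10, at 4.85 CPM in NW and 2.85 CPM in ABX, with 1.85% of 12948 genes called lower and 6.73% higher. None of the 9 was past the fold in other lymphocyte-like cells, where 3.74% of 12033 genes were called lower and 3.13% higher. Il10 had 66 and 116 UMIs there, with a log2 ratio of 0.33 (-0.12 to 0.79). Plasma cell-like cells held 23 of these UMIs in NW and 82 in ABX, whereas CD4+ T-like cells held 27 and 10. The ratio is thus not shared by all lymphocyte-like cells. It passed the fold as higher when doublets were left out (0.62). In cells without macrophage UMIs it stood at -1.005 (-4.13 to 2.58), on 2 and 3 UMIs, which are too few to give a direction. Over the 17 finer classes, 116 of 153 pairs of a gene and a class had 50 UMIs, of which 5 were past the fold lower and 3 higher. Of all pairs of a gene and a finer class, 3.51% were called lower and 4.44% higher. Besides the pairs given above, these were Ebi3 in endothelial-like cells, lower in ABX where 4.46% of genes were called lower, and Smad7, lower in cluster 17 (2.95%) and higher in cluster 4 (6.45%). The median log2 ratio of the 9 genes was -0.13 in Treg-like, -0.06 in other lymphocyte-like and 0.10 in myeloid-like cells, beside 0.04, -0.01 and 0.03 over all genes with 50 UMIs.

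**Figure D3:**
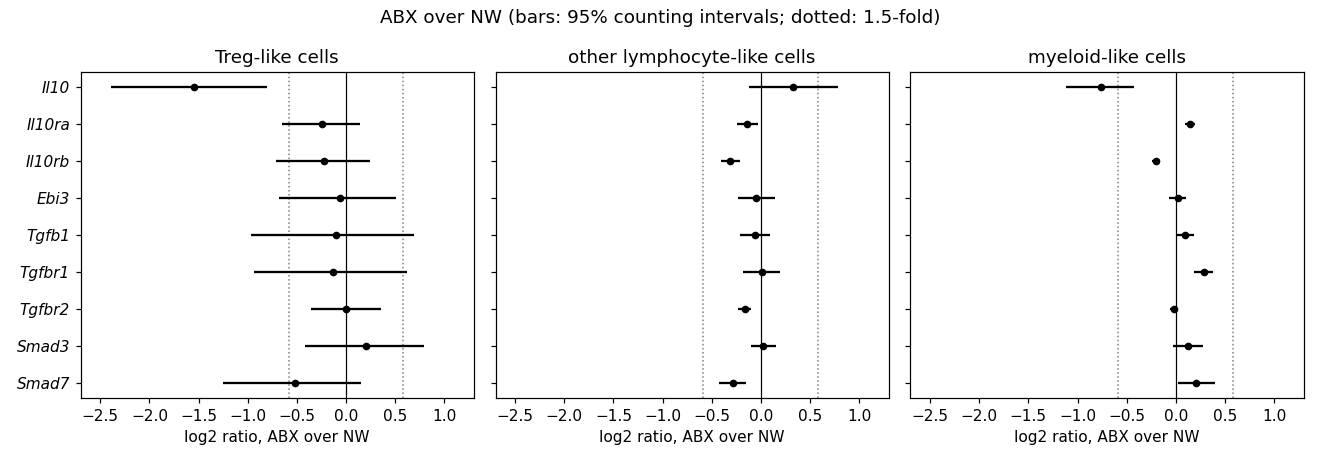
Log2 ratio of ABX over NW (horizontal axis) of the 9 genes in Treg-like, other lymphocyte-like and myeloid-like cells, with 95% counting intervals as bars and dotted lines at 1.5-fold. Il10 lies beyond the dotted line in Treg-like cells, at -1.55, and in myeloid-like cells, at -0.76.

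The other 66 genes of both pathways were grouped by role. In Treg-like cells 40 of them had 50 UMIs, of which 8 were past the fold lower and 4 higher in ABX, beside 4.52% and 5.45% of all genes. Below the median share of immediate early and heat shock UMIs 8 of 26 genes with 50 UMIs were past the fold, and above it 7 of 30. In cells without macrophage UMIs 7 genes had 50 UMIs, and 2 of them were past the fold. The share of all genes past the fold is not given for these subsets, so that their counts have no background. Of the regulators of Il10, Irf4, a transcription factor of effector Treg cells, went from 49.0 to 13.2 CPM (log2 ratio -1.89, interval -3.38 to -0.70), on 77 and 6 UMIs. Dusp1, a phosphatase and an immediate early gene, went from 1398 to 675 CPM (-1.05), and Bhlhe40, a repressor of Il10, was higher in ABX, at 26.1 and 64.0 CPM (1.29). Maf, an activator of Il10, did not pass, with 1002 CPM in NW and 1114 CPM in ABX.

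Of the IL-10 signalling genes, Nfil3 (log2 ratio -1.57) and Hmox1, the haem oxygenase induced by IL-10 in macrophages (-1.20), were lower in ABX Treg-like cells. Hmox1 was highest in macrophage-like cells, at 740 CPM. Among genes that activate TGF-beta, the integrin gene Itgb8 was 18.5 CPM in NW and 55.1 CPM in ABX (1.58, interval 0.75 to 2.40), and the protease gene Furin was also higher (0.76). Of the inhibitors Tgif1 was lower (-1.11). Of the response genes Itgae, the CD103 integrin chain, was lower (-1.27, interval -2.54 to -0.21), on 67 and 8 UMIs. Itgae was highest in cDC1-like cells, at 138 CPM. The 7 cDC1 markers summed to 2.44 UMIs per 10000 in NW and 1.41 in ABX Treg-like cells, with 6 of 7 higher in NW. Their part in the level of Itgae was not tested. None of the 4 TGF-beta transducers with 50 UMIs passed the fold.

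In other lymphocyte-like cells 8 of 55 pathway genes were past the fold lower and 2 higher, beside 3.74% and 3.13% of all genes. Hmox1 (-0.97), Thbs1 (-0.86), Cdkn1a (-0.85), Acvr1 (-0.79), Bhlhe40 (-0.76), Dusp1 (-0.71), Itgae (-0.70) and Eng (-0.65) were lower on the log2 scale, and Ltbp4 (1.20) and Bhlhe41 (0.63) higher. The macrophage markers summed to 26.25 UMIs per 10000 in NW and 18.4 in ABX in these cells, with 10 of 10 higher in NW. In cells without macrophage UMIs 5 of 44 pathway genes were past the fold, a count for which no share of all genes is given. Bhlhe41 was highest in B cell-like cells, at 106 CPM, and these numbered 349 in NW and 940 in ABX. Ltbp4 was highest in endothelial-like cells, at 168 CPM, which are not lymphocyte-like. The part of the mix of classes and of endothelial RNA in these 2 higher ratios was not tested. In myeloid-like cells 2 of 63 genes were past the fold lower and 7 higher, beside 1.85% and 6.73% of all genes. Thbs1, which encodes thrombospondin, an activator of latent TGF-beta, went from 33.1 to 14.6 CPM (-1.18, interval -1.33 to -1.04), and Cdkn2b was lower on 87 and 25 UMIs (-1.14). Cdkn2b was highest in mature DC-like cells, which held 81 of its UMIs over both libraries and numbered 180 in NW and 74 in ABX. The part of this class in the ratio of Cdkn2b was not tested. Tgfb3, another TGF-beta ligand, was 1.97 CPM in NW and 6.99 CPM in ABX (1.82), and Ltbp2 (2.45), Ccn2 (2.09), Tgfbr3 (0.98), Ltbp4 (0.84), Il27 (0.62) and Pmepa1 (0.59) were higher. Fibroblast-like cells, a known source of Ccn2 and of latent TGF-beta binding proteins such as Ltbp2, numbered 5 in NW and 88 in ABX, and their part in these ratios was not tested.

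**Figure D4:**
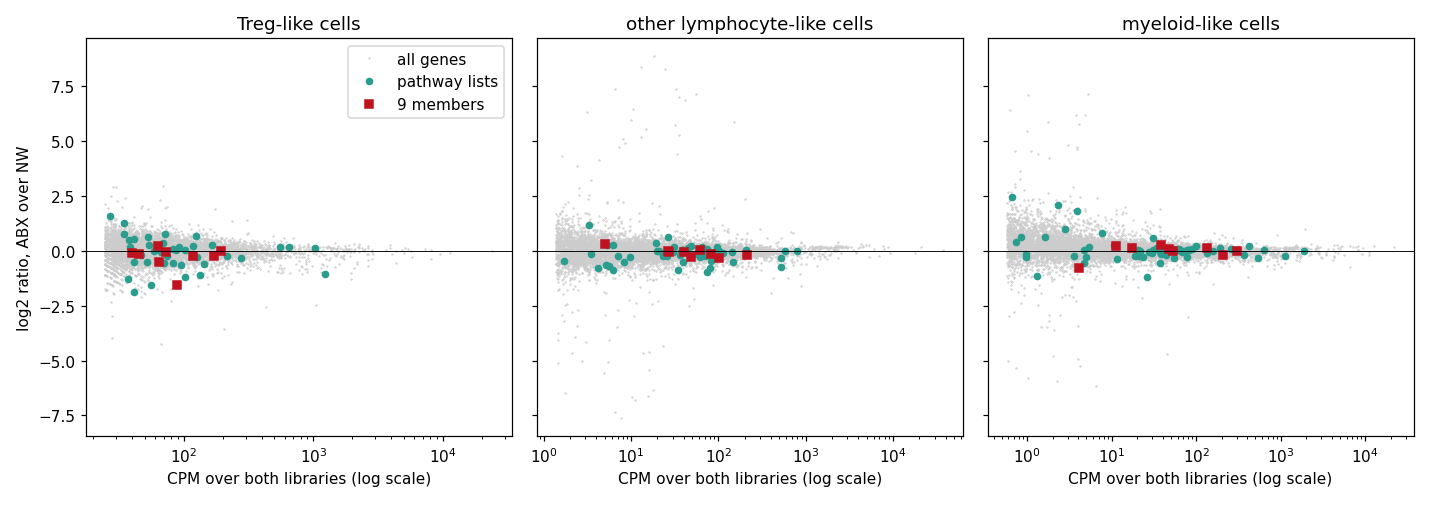
Log2 ratio of ABX over NW (vertical axis) against the level over both libraries (CPM, log scale) for all genes with at least 50 UMIs in a class and a UMI in both libraries (grey), the pathway lists (green) and the 9 genes (red), in 3 classes. Among the 9 genes, Il10 is the lowest red square in Treg-like cells, at -1.55.

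The genes whose levels ran most like those of the 9 were sought among 10878 genes, over 34 profiles (17 classes in each library). These correlations share libraries and depth and are a description. Il10 was most like Top1 (Pearson's r 0.73), Foxp3 (0.68) and Ifi27l2a (0.64). For Smad3 they were Rab37 (0.95), Fam102a (0.91) and Ncor1 (0.91), for Smad7 Arl2bp (0.89), Elmo1 (0.87) and Vasp (0.86), and for Tgfbr2 Lgals8 (0.89), Mon2 (0.87) and Ski (0.87), a repressor of SMAD signalling. Il10rb ran with Ccl3 (0.89), Ccl4 (0.86) and Fcer1g (0.85), and Il10ra with Prkag2 (0.77), Tsga10 (0.77) and Fam46a (0.76). Ebi3 ran with Zfp36 (0.83), Rasgrp4 (0.80) and Myadm (0.79), Tgfb1 with Hcls1 (0.82), Tln1 (0.81) and Inpp5d (0.81), and Tgfbr1 with Grina (0.84), Mmp9 (0.84) and Csf3r (0.83).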

How the data were processed

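For each library the authors deposited whole-number counts of UMIs per gene and cell barcode, without normalization, made with the BD Rhapsody WTA Analysis Pipeline 1.8 on GRCm38, and the submitters' processing notes name R 3.6.0 and Seurat 3.0.1. The files hold 17662 NW and 17785 ABX barcodes, with 79855126 and 64801767 gene UMIs. Cells with under 500 UMIs, under 200 genes or over 25% mitochondrial UMIs were left out, as in the methods, which kept 70.6% and 71.5%. A gene listed in 1 file was taken as 0 in the other.

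Seurat 5.3.0 in R 4.3.3 clustered the merged cells (2000 variable genes, 30 principal components, 8 antibodies, weighted nearest neighbours, resolution 0.6, no integration). Clusters were named "-like" from a list of marker genes. A name needed at least 3 markers that were 1.5-fold higher than in other cells and had a UMI in 10% of the cluster's cells. These limits were set after the clusters had been seen. Unnamed clusters 4 and 17 were placed as myeloid and other lymphocyte by their markers. Other unnamed clusters entered no class.

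UMIs were summed per class and library, so that cells were not treated as replicates. CPM carries exact Poisson intervals, shares exact (Clopper-Pearson) intervals, and ratios an interval from the exact binomial split of both libraries' UMIs, at 95%. The limit for 0 counts was 3 counts. Shares at equal depth are the expected share after thinning to 1000 UMIs. Classes needed 50 cells in each library. The calls and intervals were tested on simulated Poisson counts only. These hold neither the clustering of UMIs in few cells nor variation between libraries, so that the test does not cover either. Named are all 9 genes, of the pathway lists the 10 largest ratios past the fold in each of 3 classes, and for each of the 9 the 3 most alike genes (log2(CPM + 1), at least 500 UMIs). The other pathway genes named, and Il10 by cluster, Il1rl1 or single cell, were chosen after their values were seen. A pathway gene that this rule names is not reported here. The genes and lists were chosen with earlier results of these data known.

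Alternatives changed clustering, filters, doublets (Scrublet in scanpy 1.11.5), scaling and call limits. The gene panels and the 2-UMI minimum of the classes taken from UMI gates were written after the files had been seen. Scrublet's own limits called 2.94% of NW and 0.872% of ABX cells, so a shared score of 0.25 was added after that was seen, as were the splits by stress UMIs, by macrophage UMIs and by the cell with the most UMIs.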

Additional observations from a re-analysis of the deposited data

Results flagged for a closer look

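Il10 differed in opposite directions between classes. Its log2 ratio of ABX over NW was -1.55 in Treg-like and -0.69 in macrophage-like cells and 1.34 in plasma cell-like cells. Smad7 was past 1.5-fold in opposite directions in the unnamed clusters, at -0.75 in cluster 17, on 36 NW and 40 ABX UMIs, and at 0.70 in cluster 4, on 56 and 49 UMIs. With 1 library per condition these differences between classes were not tested.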

How the results depend on the processing

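No paired analysis was possible because each condition had 1 library, and for the same reason no replicate could be left out. The log2 ratio of Il10 stayed between -1.92 and -1.24 in Treg-like cells and between -1.09 and -0.57 in myeloid-like cells over 14 alternatives each. Of the 387 log2 ratios under the alternatives, 39 moved beyond their counting interval and none that was past the fold turned its sign. Of 306 levels under the alternatives 35 moved, most of them as a mean over cells, and Il10ra in cluster 4 went from 176 to 317 CPM. Members past the fold in Treg-like cells numbered 1, and 2 when clustered on RNA only, with the pathway genes allowed among the variable genes, or on 50 principal components, where Smad7 joined Il10 (-0.61, -0.68 and -0.86). They numbered 0 with at least 200 UMIs or in cells without macrophage UMIs, where fewer UMIs were left. In other lymphocyte-like cells they numbered 0, and 1 (Il10, higher in ABX) with the pathway genes allowed (0.71), with UMI gates (1.29), and with doublets left out by Scrublet's own limits (0.62) or by the shared score (0.73). The ratio of Il10 stood at -1.005 in cells without macrophage UMIs, on 2 and 3 UMIs, with an interval that spanned 0. Its range over 15 alternatives was -1.005 to 1.29. In myeloid-like cells they numbered 1, and 0 with at most 10% mitochondrial UMIs (Il10 -0.57) or at 2-fold. Pathway genes past the fold numbered 12 in Treg-like cells, 7 above the median stress share, 5 with at least 200 UMIs and 2 in cells without macrophage UMIs. They numbered 10 in other lymphocyte-like cells, 5 without macrophage UMIs and 1 at 2-fold, and 9 in myeloid-like cells, 5 at 2-fold and 5 with at least 200 UMIs. The share of all genes past the fold is not given under these alternatives. For the remaining moves the cause was not tested. The 16 Il10 UMIs of ABX Treg-like cells limit the precision of that ratio.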

Other observations

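Barcodes that failed the filters, 5188 in NW and 5061 in ABX, also held UMIs of all 9 genes. Il10 had 9 and 1 UMIs there, and Tgfbr2 stood at 55.2 CPM in NW and 60.3 CPM in ABX. The smaller CD4+ T-like cluster, of 76 NW and 154 ABX cells, had a lower ABX level of both IL-10 receptor genes, with Il10ra at 142 and 81.3 CPM (log2 ratio -0.80, interval -1.35 to -0.26) and Il10rb at 123 and 56.3 CPM (-1.12, interval -1.77 to -0.50). The share of all genes past the fold is not given for this cluster. Its own marker sums are not given either, and most CD4+ T-like cells were in the larger cluster, of 653 NW and 536 ABX cells. Over all CD4+ T-like cells the macrophage markers summed to 48.8 UMIs per 10000 in NW and 34.3 in ABX. The immediate early and heat shock genes summed to 99.0 and 75.4, with 10 of 10 higher in NW in both lists. Their part in the level of the receptor genes was not tested. Ebi3 was lower in ABX in endothelial-like cells, which the CD45 enrichment should have removed, at 46.3 and 24.1 CPM (-0.94, interval -1.41 to -0.49). In these cells the macrophage markers summed to 109 UMIs per 10000 in NW and 75.4 in ABX (9 of 10 higher in NW), and the immediate early and heat shock genes to 118 and 97.0 (10 of 10), with none at 0. Their part in the level of Ebi3 was not tested.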
